A study of Mus musculus with 12 samples.

Results

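Atf3 and the AP-1 family transcription factors are followed here in the livers of fasted mice that lack Cpt2 in hepatocytes, with and without hepatic Atf3. The genes were taken by name from the deposited gene count table, namely Atf3, Jun, Junb, Jund, Fos, Fosb, Fosl1, Fosl2, Maff and Batf, and these are 10 of 56748 genes in that table. All 10 have a row. RNA-seq was performed on 12 livers, 4 of each of 3 genotypes, all from mice fasted for 24 h. SKO livers are the liver-specific single KO of Cpt2, the inner mitochondrial membrane enzyme of long-chain fatty acid oxidation, and DKO livers lack both Atf3 and Cpt2. WT livers are floxed controls, which their labels give as triple floxed for Cpt1a, Cpt1b and Cpt2. For the RT-qPCR of its double KO, the study instead describes controls floxed for Atf3 and Cpt2. The liver KOs were made with Albumin-Cre, and which liver cells lost the genes was not measured here. The floxed Atf3 allele came from a EUCOMM line bred to Flpe deleter mice. The sources used here give no age for these mice. The labels give each library as a separate sample without naming the animals, so that p-values measure the spread between these samples.

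AP-1 is a dimer of basic leucine zipper (bZIP) proteins that binds short palindromic DNA sites. Jun proteins pair with each other or with Fos proteins, Fos proteins need a Jun partner, and Atf3, Batf and the small Maf proteins such as Maff dimerize with AP-1 or related bZIP proteins and lack the transactivation domain of Fos and Jun. Most of these genes are immediate early genes that are low in resting liver and are induced by growth factors, injury and stress kinases, and Atf3 is in addition a target of the integrated stress response through Atf4.

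The proximal promoters were searched for short motifs that bZIP dimers are known to bind, and 6 of them are given here, those of the 5 genes that were higher in SKO livers and that of Fos, which was not. They are the 250 bases before the RefSeq transcription start of each gene in GRCm38.p6, written 5′ to 3′ on the strand of the gene. Atf3 lies at chr1:191183334-191183583 (minus strand), Jun at chr4:95052223-95052472 (minus), Jund at chr8:70697489-70697738 (plus), Fosl2 at chr5:32136222-32136471 (plus), the second of 3 Maff starts at chr15:79347270-79347519 (plus) and Fos at chr12:85473640-85473889 (plus). Capitals mark matches on either strand to the CRE core TGACGT, the Jun-type site TGACATCA, the CARE motif TTGCNTCA, to which ATF4 and C/EBP dimers bind, or the AP-1 site TGANTCA.
Atf3: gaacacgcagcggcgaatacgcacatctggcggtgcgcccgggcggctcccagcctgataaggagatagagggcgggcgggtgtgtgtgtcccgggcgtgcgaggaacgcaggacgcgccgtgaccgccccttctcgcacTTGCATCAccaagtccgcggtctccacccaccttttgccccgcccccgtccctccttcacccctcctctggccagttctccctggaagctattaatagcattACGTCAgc
Jun: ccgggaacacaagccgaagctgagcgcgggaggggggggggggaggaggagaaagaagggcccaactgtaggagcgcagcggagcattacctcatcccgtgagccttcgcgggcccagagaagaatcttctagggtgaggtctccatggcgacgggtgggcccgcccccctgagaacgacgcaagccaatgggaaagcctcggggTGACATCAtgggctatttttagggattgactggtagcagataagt
Jund: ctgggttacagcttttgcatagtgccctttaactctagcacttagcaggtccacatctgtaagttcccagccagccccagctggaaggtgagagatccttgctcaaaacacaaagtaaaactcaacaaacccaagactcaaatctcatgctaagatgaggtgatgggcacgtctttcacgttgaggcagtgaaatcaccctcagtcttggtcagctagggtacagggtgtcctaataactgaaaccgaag
Fosl2: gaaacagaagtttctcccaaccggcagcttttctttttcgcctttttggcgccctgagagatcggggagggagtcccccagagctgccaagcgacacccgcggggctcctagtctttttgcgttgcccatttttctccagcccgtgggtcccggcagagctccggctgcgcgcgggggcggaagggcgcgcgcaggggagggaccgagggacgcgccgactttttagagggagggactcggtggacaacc
Maff, start 2: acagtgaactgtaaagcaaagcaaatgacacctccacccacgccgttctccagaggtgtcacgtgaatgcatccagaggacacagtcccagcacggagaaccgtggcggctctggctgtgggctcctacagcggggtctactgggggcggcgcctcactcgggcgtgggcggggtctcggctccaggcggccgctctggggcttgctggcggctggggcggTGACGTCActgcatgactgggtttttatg
Fos: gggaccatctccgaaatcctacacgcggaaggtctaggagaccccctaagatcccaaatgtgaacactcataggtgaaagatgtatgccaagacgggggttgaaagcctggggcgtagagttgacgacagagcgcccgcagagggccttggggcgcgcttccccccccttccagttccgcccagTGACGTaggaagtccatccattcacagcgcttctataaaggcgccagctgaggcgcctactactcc

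In Atf3 the CARE motif lies 110 to 103 bases before the start, and the CRE core lies at 8 to 3 on the reverse strand. The Jun promoter holds TGACATCA at 45 to 38, and Fos holds the CRE core at 66 to 61. At the second start of Maff the CRE core is present on both strands in overlapping positions from 29 to 22, so that 1 palindrome gives both matches. The first start of Maff has no match, and the third holds TGACATCA at 45 to 38. RefSeq promoters were matched for 9 of the 10 genes, with 11 start sites in all, and Fosl1 was not matched. Of the 11 windows, 7 held at least 1 of the 4 motifs, against 18.1% of all 32841 promoter windows of this length, and they belonged to Atf3, Jun, Fos, Fosb, Maff and Batf. By motif, TGACGT was present in 4 of the 11 windows and 6.47% of all windows, TGACATCA in 2 and 2.93%, TTGCNTCA in 2 and 3.12%, and TGANTCA in 0 and 6.75%. Junb, Jund and Fosl2 had no match, which says only that these letters are not in this window. A match is a description of the letters and not a binding site. Of the 5 genes that were higher in SKO livers, Atf3, Jun and Maff hold a match and Jund and Fosl2 hold none, and Fos, which was not higher, holds one.

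Expression was measured as counts of reads per gene, and levels are given as CPM, counts scaled to library size by TMM over all 12 livers. Total counts ran from 14710304 to 20030055 per liver, and a gene with no counts may have up to 3 counts, which is 0.145 to 0.195 CPM. This limit covers counting error only. Cpt2 ran from 198.5 to 250.4 CPM in WT livers, 108.8 to 158.5 CPM in SKO livers and 99.89 to 125.5 CPM in DKO livers, without overlap between WT and either KO. The remaining reads cannot be divided between the deleted and the retained parts of Cpt2 or Atf3, because counts are per gene and not per exon. Livers SKO 3 and DKO 4 stood apart from the others, with 18063 and 20855 counts of Xist and 2 and 0 counts over the Y-linked genes, while the other 10 livers had at most 19 counts of Xist and 2741 to 4294 Y-linked counts. The study describes its RNA-seq mice as male. DKO 4 also differed from the other DKO livers in liver genes, with Alb at 74165 CPM against 24688 to 28454 CPM and Apoa4 at 497.54 CPM against 8626.7 to 10130 CPM. WT livers had 51850 to 65151 CPM of Alb and 372.84 to 864.39 CPM of Apoa4, so that DKO 4 lay within the WT range for Apoa4 and above it for Alb, while its Cpt2, at 99.89 CPM, was the lowest of all livers. DKO 4 thus resembled WT livers in Apoa4 and the KO livers in Cpt2, its genotype is taken as labelled although this and its Xist counts leave the label in doubt, and the main results for DKO livers are therefore given with and without it.

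Atf3, the gene deleted in DKO livers and a stress-induced bZIP factor that mostly represses as a homodimer, was low in WT livers and higher in every SKO liver. Its level was 1.77, 1.20, 1.11 and 2.14 CPM in WT livers 1 to 4, from 17 to 39 counts. In SKO livers 1 to 4 it was 24.8, 54.0, 29.4 and 14.5 CPM. DKO livers 1 to 4 had 7.91, 10.8, 13.5 and 0.266 CPM, the last from 5 counts. The lowest SKO liver was above every WT and every DKO liver, DKO livers 1 to 3 were above every WT liver, and DKO 4 was below every WT liver. The Atf3 transcript level per liver thus lay in 3 separate ranges once DKO 4 was set aside. The count table places Atf3 (ENSMUSG00000026628) on chromosome 1 from 190902493 to 190950236, minus strand, and its coordinates for the 10 genes matched GRCm38 gene models in 0 cases, although the submitters' notes list GRCm38.

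**Figure D1:**
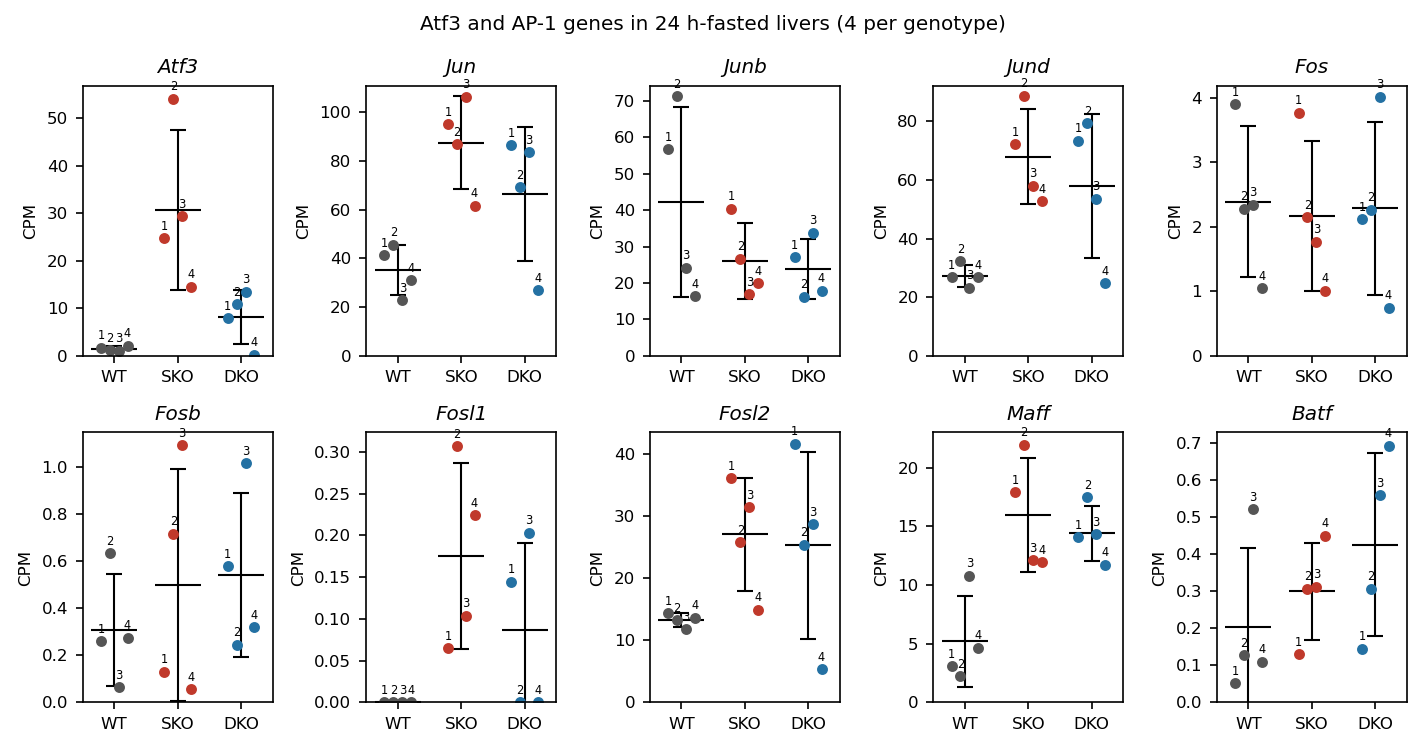
CPM of each of the 10 genes (y axis, linear, own scale per panel) in WT, SKO and DKO livers (x axis), with 1 numbered point per liver, the mean as a long bar and the SD as whiskers, n = 4. Atf3 in SKO livers runs from 14.5 to 54.0 CPM, above all other livers, and DKO 4 is the lowest DKO liver for Atf3, Jun, Jund, Fos, Fosl2 and Maff.

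Among the Jun genes, which encode the partners that every Fos protein needs, Jun and Jund were higher in all SKO livers than in all WT livers and Junb was not. Jun was 41.3, 45.6, 23.0 and 31.1 CPM in WT livers 1 to 4. It was 95.1, 86.9, 106.3 and 61.6 CPM in SKO livers and 86.3, 69.2, 83.5 and 26.9 CPM in DKO livers. DKO 4 lay within the WT range for Jun, and the other 3 DKO livers lay above it. Jund, the Jun gene with the steadiest expression in resting tissues, was 26.9, 32.3, 23.2 and 26.9 CPM in WT livers. It was 72.3, 88.8, 58.1 and 52.7 CPM in SKO livers and 73.5, 79.3, 53.7 and 24.9 CPM in DKO livers. Its pattern was that of Jun, with DKO 4 again inside the WT range. Junb, which is induced early and often opposes Jun, was 56.8, 71.3, 24.3 and 16.5 CPM in WT livers, 40.4, 26.7, 16.9 and 19.98 CPM in SKO livers and 27.2, 16.2, 33.8 and 17.9 CPM in DKO livers. WT 1 and WT 2 had the highest Junb levels of all 12 livers, and the 3 groups overlapped.

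The Fos genes divided in the same way. Fosl2 (Fra-2), a Fos gene without the C-terminal transactivation domain of Fos, was 14.3, 13.2, 11.8 and 13.6 CPM in WT livers. It was 36.1, 25.8, 31.4 and 14.9 CPM in SKO livers and 41.6, 25.4, 28.7 and 5.38 CPM in DKO livers. SKO 4 was only just above the highest WT liver, and DKO 4 was below every WT liver. Fos, the classical immediate early gene, was low in every group, at 2.39 ± 1.17 CPM in WT, 2.17 ± 1.16 CPM in SKO and 2.29 ± 1.34 CPM in DKO livers (SD, n = 4). Its 3 groups covered nearly the same range, from 1.04 to 3.899 CPM in WT, from 1.0105 to 3.76 CPM in SKO and from 0.745 to 4.02 CPM in DKO livers. Fosb had 1 to 10 counts per WT liver, 1 to 21 per SKO liver and 4 to 20 per DKO liver, so that no difference was detectable at this depth. Fosl1 (Fra-1) had 0 counts in all 4 WT livers, 1, 6, 2 and 4 counts in SKO livers 1 to 4 and 3, 0, 4 and 0 counts in DKO livers. The mean of the SKO livers, 0.175 CPM, lay within the range that the limit of 3 counts per liver gives in WT livers, 0.156 to 0.195 CPM, and no fold is given.

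Of the remaining partners, Maff, a small Maf protein that pairs with other bZIP proteins and has no transactivation domain, was 3.07, 2.21, 10.8 and 4.67 CPM in WT livers. It was 17.9, 21.9, 12.1 and 12.0 CPM in SKO livers and 14.1, 17.5, 14.3 and 11.7 CPM in DKO livers. Maff was higher in all 8 KO livers than in all WT livers, DKO 4 included, although WT 3 came close to the lowest of them. Batf, a Jun partner best known from lymphocytes, had 1 to 8 counts per WT liver, 2 to 8 per SKO liver and 3 to 13 per DKO liver, with overlapping groups.

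Between SKO and WT livers, the comparison that shows these genes when hepatic fatty acid oxidation is lost, 5 of the 7 genes tested were higher and 0 were lower by the quasi-likelihood test of edgeR, with p-values adjusted by Benjamini and Hochberg's method over all genes and a threshold of 0.05. In the same test 32.1% of all 14261 genes were called, 16.7% higher and 15.4% lower, and 42% had an unadjusted p-value under 0.05, as had the same 5 of the 7. The median log2 fold change was 1.31 over the 7 genes and 0.0306 over all genes. Fosb, Fosl1 and Batf had too few counts to be tested, and so the 7 are not all of the 10. The log2 fold change of Atf3 was 4.28 ± 0.40 (SE), with a 95% interval from 3.40 to 5.16 (edgeR, adjusted p = 1.99e-05). Jun was higher by 1.31 ± 0.22 (SE) and Jund by 1.31 ± 0.17 on the log2 scale, with edgeR adjusted p-values of 0.000977 and 0.000188. These steps were smaller than that of Atf3, whose interval does not reach theirs. Maff was higher by 1.63 ± 0.42 and Fosl2 by 1.02 ± 0.23 (SE, log2, edgeR adjusted p = 0.011 and 0.00531). The Fosl2 call was lost when all 12 livers were fitted together (edgeR adjusted p = 0.098). Junb had a log2 fold change of -0.70 (95% interval -1.61 to 0.21, edgeR adjusted p = 0.227) and Fos one of -0.16 (-1.12 to 0.81, adjusted p = 0.825), so that a change of Fos up to these bounds was not detectable. Groups did not overlap for the same 5 of the 7 genes tested, all higher in SKO, against 33.2% of all genes tested, 17.2% higher and 16.1% lower. Fosl1, which was not tested, had 0 counts in each WT liver and 1 to 6 in SKO livers. Its separation does not go beyond the limit of 3 counts. Without a filter on low counts Fosl1 also passed (edgeR adjusted p = 0.026), on these same few counts.

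Between DKO and WT livers, 1 of 7 genes tested was called at this threshold, Jund, against 10.5% of 14448 genes in all, 6.06% higher and 4.39% lower. Jund was higher by 1.09 ± 0.30 (SE, log2, edgeR adjusted p = 0.0483), with overlapping groups because of DKO 4. This call was lost when any liver other than DKO 4 was left out, and without WT 3 Maff was called instead (edgeR adjusted p = 0.0127). Maff missed the threshold at 1.49 ± 0.42 (adjusted p = 0.0525, edgeR), and it was the 1 gene of the 10 whose groups did not overlap, against 16.8% of all genes, 7.72% higher and 9.05% lower. Atf3 had a log2 fold change of 2.38 ± 0.78 (95% interval 0.62 to 4.13, edgeR adjusted p = 0.0796), Jun one of 0.93 ± 0.34 (adjusted p = 0.108) and Fosl2 one of 0.94 ± 0.46 (adjusted p = 0.204). Junb and Fos stood at -0.81 and -0.055 and were not called (adjusted p = 0.253 and 0.955, edgeR). The median was 0.941 over the 7 genes and 0.0303 over all genes.

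Without DKO 4, the same comparison called 5 of 8 genes tested, all higher, against 35.9% of all genes, 18.4% higher and 17.5% lower, and the median over the 8 was 1.23. The 5 were Atf3, Jun, Jund, Fosl2 and Maff, which were also the 5 genes called in SKO livers, and in each of them the 3 DKO livers lay above every WT liver, as in 21.5% of all genes tested, while 20.3% lay below and 41.8% did not overlap in either direction. Atf3 was then higher by 2.77 ± 0.28 (SE, log2, edgeR adjusted p = 2.74e-05), from a mean of 10.7 ± 2.78 CPM (SD, n = 3). Jund was higher by 1.33 ± 0.15, Fosl2 by 1.27 ± 0.17, Jun by 1.18 ± 0.20 and Maff by 1.57 ± 0.41 on the log2 scale, with edgeR adjusted p-values from 5e-05 to 0.0117. Both comparisons use the same WT livers, so their likeness is no independent support. The SE of Atf3 was 0.78 with DKO 4 and 0.28 without it.

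**Figure D2:**
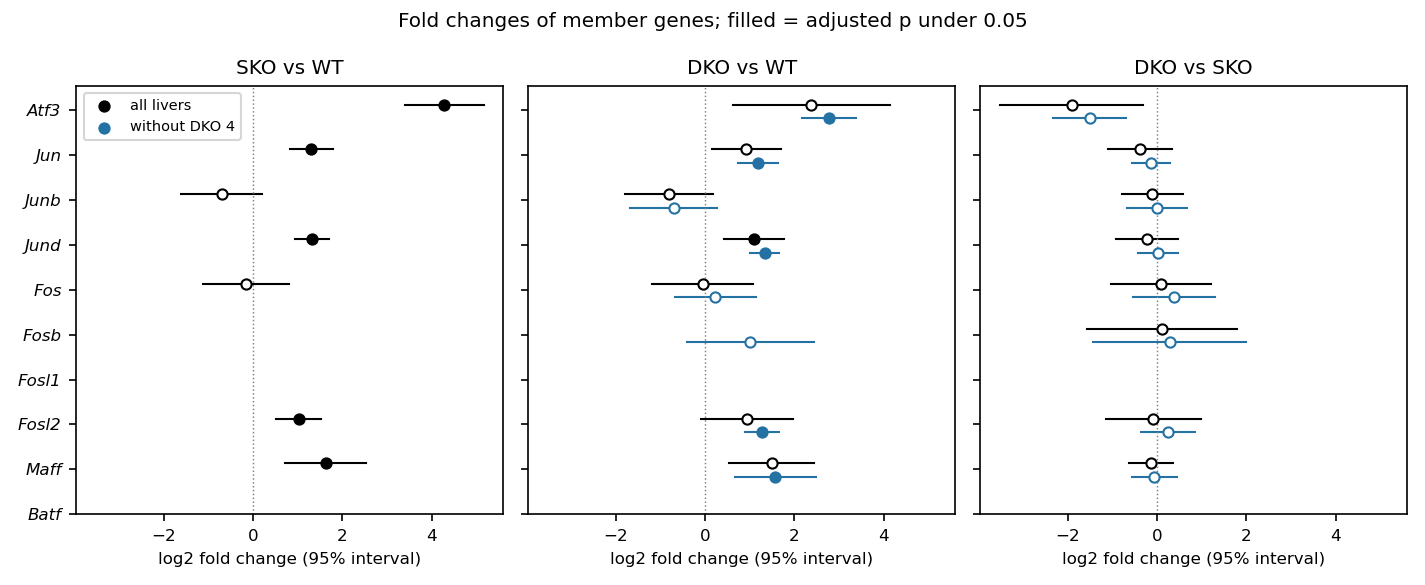
Log2 fold change of each gene tested (x axis, points, with 95% intervals as lines) in SKO against WT, DKO against WT and DKO against SKO livers, in black for all livers and in blue without DKO 4. Filled points have an adjusted p-value under 0.05, which holds for 5 genes in SKO against WT, 1 in DKO against WT (5 without DKO 4) and 0 in DKO against SKO.

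Between DKO and SKO livers, the comparison that addresses the loss of Atf3 in livers without Cpt2, 0 of the 8 genes tested were called by edgeR and 0 by DESeq2, against 0.0209% of 14363 genes in all by edgeR, 0.00696% higher and 0.0139% lower. At an unadjusted p-value under 0.05 stood 1 of the 8, against 6.49% of all genes. This was Atf3 itself, with a log2 fold change of -1.91 ± 0.73 (SE, 95% interval -3.52 to -0.30, edgeR adjusted p = 0.701). Atf3 was also the 1 gene of the 10 without overlap between the groups, lower in every DKO liver, against 3.94% of all genes tested, 2.08% higher and 1.86% lower. Its log2 fold change was -1.51 ± 0.37 without DKO 4 (95% interval -2.33 to -0.69, edgeR adjusted p = 0.25), where 0.103% of genes were called, 0.0617% higher and 0.0411% lower. The targeted gene was thus lower in 4 of 4 DKO livers without passing the correction over all genes. For its partners, the intervals give the size of difference that these livers could hide. The log2 fold change of Jun was -0.38 (95% interval -1.09 to 0.32), that of Jund -0.22 (-0.91 to 0.47) and that of Junb -0.10 (-0.79 to 0.58). The narrowest interval was that of Maff, at -0.13 (-0.62 to 0.36), and the widest was that of Fosb, at 0.12 (-1.56 to 1.79). Fosl2 stood at -0.087 (-1.15 to 0.98) and Fos at 0.097 (-1.02 to 1.22). The edgeR adjusted p-values of these 7 genes ran from 0.908 to 0.997. The median was -0.119 over the 8 genes and 0.00858 over all genes, and 0.0132 over the 8 without DKO 4.

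Levels of different genes are compared per kilobase of the gene length in the count table. In WT livers Junb (18.3 CPM per kb), Jund (16.4) and Jun (11.1) formed the top of the order with overlapping ranges, above Maff (2.00), Fosl2 (1.37), Fos (1.02) and Atf3 (0.722). In SKO livers the mean order was Jund (40.8 CPM per kb), Jun (27.4), Atf3 (14.2), Junb (11.3) and Maff (6.16), each overlapping in range with its neighbour, above Fosl2 (2.79) and Fos (0.924). In DKO livers Jund (34.7 CPM per kb), Jun (20.9) and Junb (10.3) were again above Maff (5.55), Atf3 (3.77) and Fosl2 (2.61). Batf, Fosb and Fosl1 were last in every genotype, at 0.303 CPM per kb or less. The Jun genes thus held the largest part of the summed level in every genotype, at 88.6 ± 5.60% for WT livers, 77.1 ± 4.41% for SKO livers and 83.2 ± 1.71% for DKO livers (SD, n = 4), and the 4 Fos genes held 4.92, 3.70 and 4.35% on average. Without DKO 4 the DKO means were 83.0% for the Jun genes and 4.97% for the Fos genes.

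The share of Atf3 in the summed level per length was 1.54 ± 0.772% for WT livers, 13.1 ± 4.62% for SKO livers and 4.13 ± 2.84% for DKO livers (SD, n = 4). The share of Jund was 33.5 ± 7.13%, 39.4 ± 3.37% and 43.2 ± 6.92% in the same order, and the share of Junb was 33.3 ± 12.3%, 10.9 ± 3.44% and 14.2 ± 5.67%. Without DKO 4 the shares in DKO livers were 5.39 ± 1.58% for Atf3, 44.2 ± 8.09% for Jund and 12.0 ± 4.32% for Junb (SD, n = 3). Atf3 shares did not overlap between WT and SKO livers, which ran from 0.813 to 2.63% and from 9.20 to 19.3%. The sum itself was 59.0, 68.6, 38.9 and 37.8 CPM per kb in WT livers 1 to 4, 115, 130, 98.3 and 73.4 in SKO livers and 97.5, 92.0, 90.2 and 37.3 in DKO livers. Every SKO liver was above every WT liver, and DKO 4 was the lowest of all 12. Shares and sums are given without a test. In bulk liver, fewer cells of a type and less RNA per cell cannot be told apart.

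**Figure D3:**
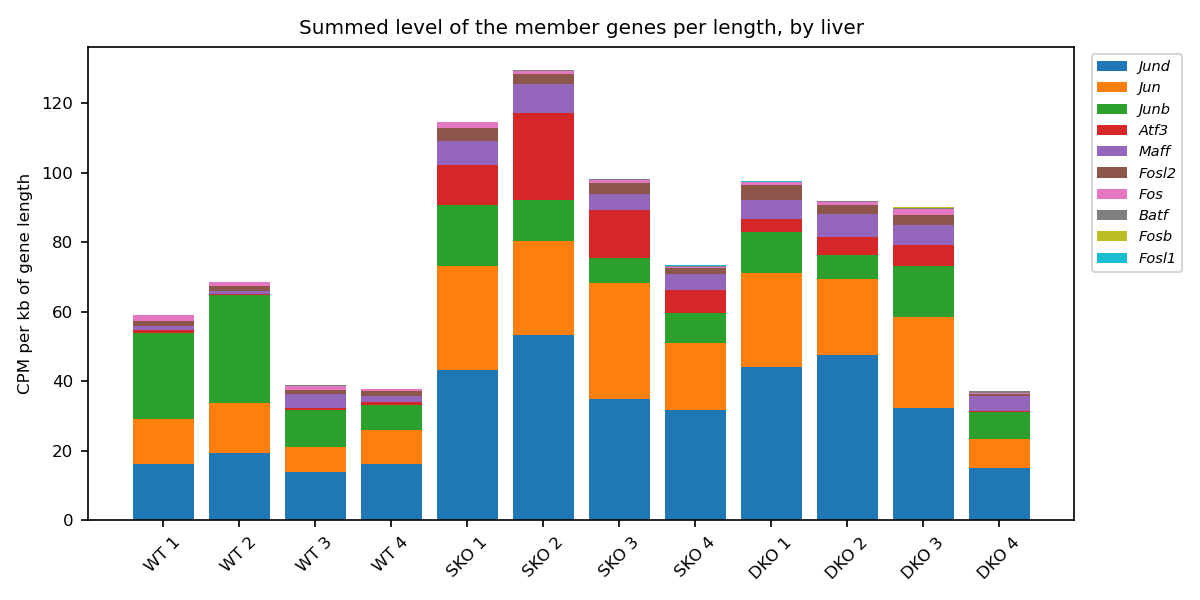
Summed level of the 10 genes per liver in CPM per kb of gene length (y axis, from 0), with 1 stacked bar per liver and a color per gene. SKO bars reach 73.4 to 130 with a visible Atf3 layer, DKO 1 to 3 reach 90.2 to 97.5 with a thin one, and DKO 4 at 37.3 is as low as WT 4 at 37.8.

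In each KO group, 1 liver was lowest for most of the genes. SKO 4 was the lowest SKO liver for 7 of the 10 genes (Atf3, Jun, Jund, Fos, Fosb, Fosl2 and Maff), and DKO 4 was the lowest DKO liver for 6 of them. The highest liver differed by gene, being SKO 2 for Atf3, SKO 3 for Jun and SKO 1 for Fosl2. Over all 12 livers, Pearson's r of log2 CPM (prior count 2) was 0.912 between Jun and Jund, 0.9 between Atf3 and Jun, 0.895 between Atf3 and Jund and 0.884 between Jun and Fosl2, while that between Atf3 and Junb was -0.135. Junb went most with Fos, at 0.655. These values describe 12 points that share genotype and library, and no p-value is given.

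Among 12987 genes with a mean of at least 1 CPM, those most like Atf3 over the 12 livers were Alpl (r = 0.986), Dtnb (0.972), Gal3st1 (0.971), Anks6 (0.971) and Impdh1 (0.971). Alpl, which encodes tissue-nonspecific alkaline phosphatase, was 26.8 ± 2.55 CPM in WT, 68.2 ± 18.4 CPM in SKO and 39.2 ± 14.4 CPM in DKO livers (SD, n = 4), and 17.6 CPM in DKO 4. Like Atf3 it was highest in SKO livers and below the WT mean in DKO 4. Impdh1, an enzyme of guanine nucleotide synthesis, was 4.07 ± 0.902, 11.2 ± 0.831 and 6.23 ± 2.72 CPM in the same order. Without DKO 4, the DKO mean of Alpl was 46.4 ± 1.14 CPM (SD, n = 3) and that of Impdh1 was 7.53 CPM. The genes most like Jun were Zdhhc23 (r = 0.972), Mapk13 (0.961) and Piezo1 (0.954), and those most like Fos were Zfp59 (0.916), Arhgap31 (0.857) and Whrn (0.836). Piezo1, a mechanosensitive channel, was 5.73 ± 1.14 CPM in WT, 12.6 ± 3.56 CPM in SKO and 11.6 ± 4.10 CPM in DKO livers, or 13.6 ± 1.28 CPM without DKO 4.

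The other genes around AP-1 were taken from 4 lists. Of 34 immediate early genes outside the 10, 30 were tested, and in SKO against WT 10 were higher and 4 lower, against 16.7% higher and 15.4% lower of all genes tested. The median log2 fold change was 0.397 over the list and 0.0306 over all genes. Klf6, a zinc finger factor, rose by 3.09 ± 0.32, Myc by 2.09 ± 0.29, Ier3 by 2.14 ± 0.33 and the ERK phosphatase Dusp5 by 1.89 ± 0.30 (SE, log2, edgeR adjusted p = 3.57e-05, 0.000237, 0.000556 and 0.000657). The 4 that fell were Csrnp1, Zfp36, Nr4a1 and Dusp6, and Nr4a1 and Dusp6 were named after their values were seen. In DKO against WT 4 were higher and 2 lower, against 6.06% higher and 4.39% lower of all genes tested, with a median of 0.204. Klf6 rose by 3.05 ± 0.51, Gadd45b, a growth arrest and stress gene, by 2.10 ± 0.41 and the kinase Plk3 by 1.39 ± 0.32, and Csrnp1 fell by 1.43 ± 0.30 (edgeR adjusted p from 0.0121 to 0.0283). Without DKO 4 these were 3.37 ± 0.26, 2.17 ± 0.40, 1.61 ± 0.22 and -1.73 ± 0.25, in that order. In DKO against SKO 0 of the 30 were called by edgeR or DESeq2, against 0.0209% of all genes by edgeR. At an unadjusted p-value under 0.05 stood 3 of the 30, against 6.49% of all genes. The nearest was Zfp36, an mRNA decay factor, at 0.78 ± 0.29 (SE, log2, edgeR adjusted p = 0.683).

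Of 14 related bZIP genes 11 were tested, of which 2 were higher and 3 lower in SKO against WT, against 16.7% higher and 15.4% lower of all genes tested. The median log2 fold change was 0.297. Mafk, a small Maf gene like Maff, rose from 25.4 ± 2.66 to 50.1 ± 2.82 CPM (SD, n = 4; edgeR adjusted p = 9.7e-05). Nfil3, a repressor of the clock output, fell by 1.37 ± 0.21 and Bach1, a partner of small Maf proteins, rose by 0.51 ± 0.15 (SE, log2, edgeR adjusted p = 0.000534 and 0.022). In DKO against WT 1 of the 11 was called, against 6.06% higher and 4.39% lower of all genes tested, namely Mafk, higher by 0.86 ± 0.22 (edgeR adjusted p = 0.0388), and by 1.06 ± 0.11 without DKO 4. In DKO against SKO 0 of 11 were called by edgeR, against 0.0209% of all genes, and 1 by DESeq2. At an unadjusted p-value under 0.05 stood 1 of the 11, against 6.49% of all genes. This was Nfil3, at 1.04 ± 0.23 (SE, log2, edgeR adjusted p = 0.386).

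Of 21 genes upstream of AP-1, MAP kinase pathway genes together with the ETS factors Elk1, Elk3 and Elk4, all were tested, and 3 were higher and 2 lower in SKO against WT, against 16.7% higher and 15.4% lower of all genes tested, with a median of -0.0797. Map2k6, which activates p38, fell from 15.3 ± 4.52 to 0.891 ± 0.585 CPM (SD, n = 4; edgeR adjusted p = 2.8e-05), and the p38 gene Mapk14 fell by 0.52 ± 0.14 on the log2 scale (adjusted p = 0.0162). Mapkapk2, a p38 substrate, rose by 1.10 ± 0.15, and Mapk7 (ERK5) rose by 1.28 ± 0.27 (SE, log2, edgeR adjusted p = 0.000268 and 0.00345). Of these genes Map2k6, Mapk7 and Mapkapk2 were called in DKO against WT, against 6.06% higher and 4.39% lower of all genes tested, with Map2k6 lower by 3.15 ± 0.60 and Mapk7 and Mapkapk2 higher by 1.38 ± 0.33 and 0.91 ± 0.24 (edgeR adjusted p from 0.0177 to 0.0445). Without DKO 4 their log2 fold changes were -4.02 ± 0.43, 1.60 ± 0.25 and 1.10 ± 0.15. In DKO against SKO 0 of 21 were called by edgeR or DESeq2, against 0.0209% of all genes by edgeR. An unadjusted p-value under 0.05 was found for 0 of the 21, against 6.49% of all genes. The smallest p-value was that of Map2k2 (log2 fold change -0.38, edgeR adjusted p = 0.764). These are transcripts and not kinase activities.

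Of 30 textbook AP-1 and ATF3 targets 17 were tested, of which 6 were higher and 3 lower in SKO against WT, against 16.7% higher and 15.4% lower of all genes tested, with a median of 0.459. The stress hormones Gdf15 and Fgf21 rose from 3.01 ± 1.77 to 53.8 ± 11.5 CPM and from 3.23 ± 1.80 to 72.3 ± 23.6 CPM (SD, n = 4; edgeR adjusted p = 6.1e-06 and 8.1e-06). Heme oxygenase Hmox1 rose by 2.63 ± 0.43 and osteopontin Spp1 fell by 1.44 ± 0.23 (SE, log2, edgeR adjusted p = 0.000749 and 0.000658). In DKO against WT 4 were higher and 0 lower, against 6.06% higher and 4.39% lower of all genes tested, with a median of 0.485. Gdf15 reached 83.3 ± 35.7 CPM and Fgf21 106.4 ± 66.8 CPM in DKO livers (SD, n = 4; edgeR adjusted p = 0.00337 and 0.00603), with Nqo1 and Hmox1 the other two genes called. Both hormones had higher means in DKO than in SKO livers, and neither was called between them. Without DKO 4 their means in DKO livers were 100.6 ± 10.9 and 133.7 ± 47.4 CPM (SD, n = 3). In DKO against SKO 0 of 17 were called by edgeR or DESeq2, against 0.0209% of all genes by edgeR. At an unadjusted p-value under 0.05 stood 2 of the 17, against 6.49% of all genes. Without DKO 4, the calls in DKO against WT were 12 higher and 3 lower of 29 immediate early genes tested, 2 higher and 1 lower of 11 related bZIP genes, 2 higher and 4 lower of 21 upstream genes and 6 higher and 3 lower of 19 targets, against 18.4% higher and 17.5% lower of all genes. The medians of the 4 lists were then 0.362, 0.133, -0.0032 and 0.408.

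**Figure D4:**
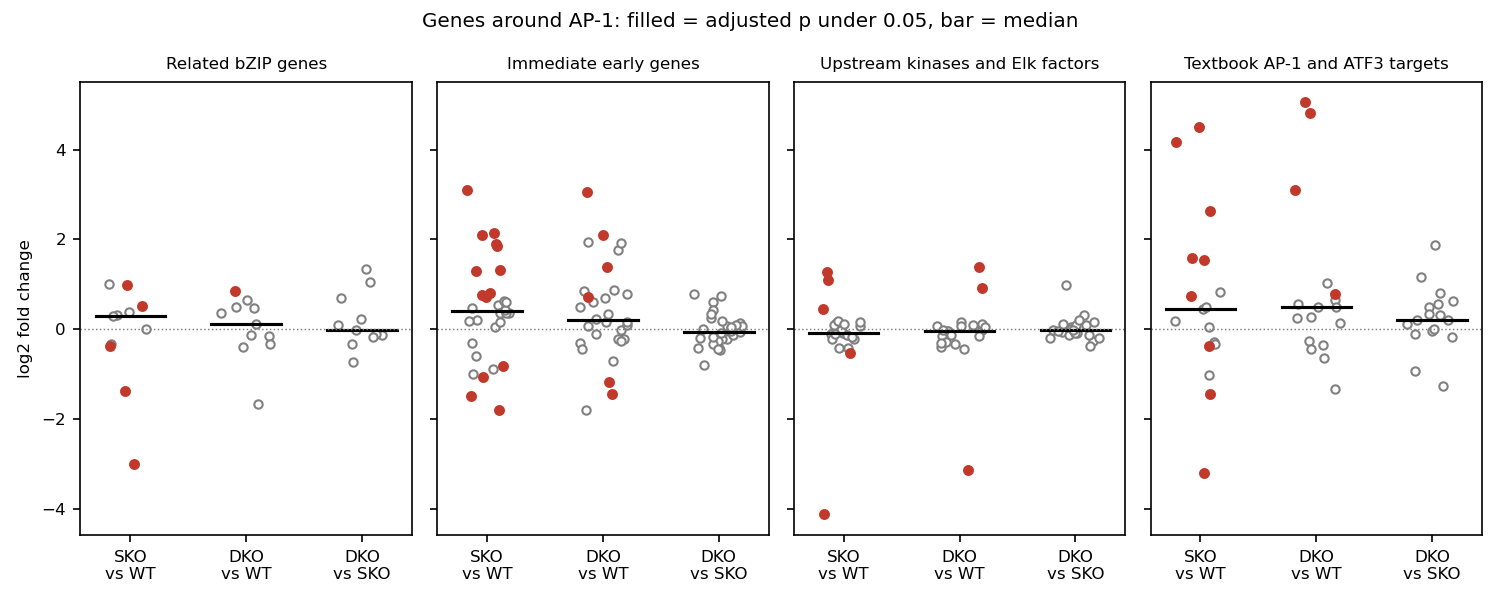
Log2 fold change of each tested gene (y axis) of the 4 lists in the 3 comparisons (x axis), with filled red points for an adjusted p-value under 0.05 and a bar at the median. Calls lie on both sides of 0 in every list in SKO against WT, and no point is filled in DKO against SKO.

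Reads of some of these genes may be shared with a gene on the opposite strand, and the sources used here do not give the strandedness of the counting. Prdx2 overlaps Junb by 351 bases and had 1220 to 2145 counts per liver, Ccdc85b overlaps Fosl1 by 2767 bases with 101 to 379 counts, and Junos overlaps Jun by 689 bases with 10 to 38 counts. Levels of Junb and Fosl1 are therefore uncertain to that extent. The lncRNA genes over Jund and Maff had 0 and at most 17 counts.

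Markers of other liver cells were summed beside these values. The 8 markers of Kupffer cells and macrophages summed to 196 to 397 CPM in WT, 193 to 463 CPM in SKO and 117 to 390 CPM in DKO livers, and 1 was called higher in SKO against WT and 1 lower in DKO against WT. The 6 stellate cell and fibroblast markers summed to 165 to 195, 226 to 314 and 207 to 263 CPM, with 1 called higher in SKO against WT, and their sum was above the WT range in every KO liver, DKO 4 with its low Atf3 and Jun included. The 5 cholangiocyte markers summed to 27.9 to 33.3, 7.41 to 14.4 and 9.60 to 31.1 CPM, with DKO 4 at the top, and 2 were called lower in SKO against WT and 1 in DKO against WT. Spp1, already given above as a target, is among these markers and made up most of the sum in WT livers. It was 22.4 ± 2.35 CPM in WT, 8.27 ± 2.72 CPM in SKO and 14.2 ± 9.47 CPM in DKO livers (SD, n = 4), so the 2 results are not separate. The 8 hepatocyte markers summed to 89500 to 110000, 53700 to 81800 and 52100 to 108000 CPM, with DKO 4 again highest, and 5 were called lower in SKO against WT. Neutrophil and lymphocyte markers summed to at most 1.66 and 4.63 CPM in any liver, and endothelial markers to 154 to 338 CPM with no call. No marker was at 0 in all livers. The part of these markers in the changes of Atf3 and its partners was not tested.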

How the data were processed

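RNA-seq was analysed in 12 livers of 24 h-fasted mice, 4 each of WT, SKO and DKO, grouped by the genotype in their labels. The deposited values are raw read counts for each Ensembl gene, which the authors left unnormalized. The submitters' processing notes list HISAT2, GRCm38 and mm10, while the counting program and annotation release are not given in the sources used here. Deposited FPKM values were not used, nor were the authors' tables of their own fold changes and p-values. Total counts were 14710304 to 20030055 per liver, and between livers of a genotype the chi-square of their counts was at least 18.5 times its degrees of freedom, so that none was a copy of another. The number of other per-sample columns was 0.

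Each pair of genotypes was fitted on its own livers with edgeR 4.0.16 in R 4.3.3 (TMM, filterByExpr, quasi-likelihood test, two-sided), with Benjamini-Hochberg adjustment over all genes tested and a threshold of 0.05. SEs were taken from the fold change and the F statistic, and 95% intervals from the same fit. The fit was tested on simulated counts. Genes named are the 10 members, up to 4 called genes of smallest p-value per list and comparison (1 where none was called), the genes most alike in Pearson's r (5 for Atf3, 3 each for Jun and Fos), genes overlapping a member, and Cpt2, Xist and Y-linked genes as checks. A few results under this rule are not reported here. Alb and Apoa4 were named after their values were seen. The members, lists, motifs and markers were chosen with earlier results of these data known. Promoters came from RefSeq on GRCm38.p6. Alternatives were DESeq2 1.42.0, RLE normalization, no filter, all 12 livers in one fit, a replicate block, only livers with Y-linked counts, and each liver left out in turn.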

Additional observations from a re-analysis of the deposited data

Results flagged for a closer look

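The level of Batf in WT liver 3 was 0.52 CPM, far from the other WT livers at 0.052 to 0.127 CPM. The gap to the nearest of them was 0.841 of the range of the group, above Dixon's 95% critical value for 4 livers. It rests on 8 counts. Of 30 groups examined in this way (10 genes in 3 genotypes), chance flags about 1 in 20, or 1.5.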

How the results depend on the processing

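In SKO against WT livers 4 to 6 of the 10 genes were called under every alternative, while 3617 to 4856 genes were called in all. In DKO against SKO livers 0 of the 10 were called under any. Over the fold changes of single genes, 264 alternative values kept their direction and their side of the threshold, 15 gained and 10 lost the call, and 19 changed sign. Of the related bZIP genes in SKO against WT, 3 were called with all 12 livers in one fit and 3 to 6 with 1 liver left out, and of the upstream genes 3 to 6. In DKO against WT, DESeq2 called 3 of the 10 genes, 11 immediate early genes, 5 upstream genes and 2635 genes in all. RLE normalization called 0 of the 10 and 1465 genes in all. No filter gave 3 of the 10, 11 immediate early genes and 1680 genes in all. All 12 livers in one fit gave 3 of the 10, 10 immediate early genes and 1729 genes in all. Livers with Y-linked counts alone gave 5 of the 10 genes, 3 related bZIP genes, 15 immediate early genes, 6 upstream genes, 9 targets and 5253 genes in all. With 1 liver left out these counts ran from 0 to 5, 0 to 3, 0 to 15, 0 to 6, 2 to 9 and 244 to 5253, each highest without DKO 4. In DKO against SKO, all genes called were 97 with DESeq2 (1 related bZIP gene), 35 without a filter, 21 in livers with Y-linked counts and 0 to 15 with 1 liver left out. Changed signs all belonged to genes that were not called. With 1 liver left out, the log2 fold change of Fos ran from -0.54 to 0.18 in SKO against WT (above 0 without WT 1, and 0.09 without SKO 4), from -0.48 to 0.28 in DKO against WT (above 0 without WT 1, and 0.23 without DKO 4 or with Y-linked livers alone) and from -0.33 to 0.49 in DKO against SKO (below 0 without DKO 3, and -0.15 without SKO 4). In DKO against SKO, Junb ran from -0.32 to 0.19 (above 0 without SKO 1, DKO 2 or DKO 4), Jund from -0.40 to 0.025 (without DKO 4), Maff from -0.26 to 0.056 (without SKO 2), Fosb from -0.38 to 0.82 (below 0 without SKO 1, SKO 4 or DKO 3) and Fosl2 from -0.44 to 0.25 (above 0 without SKO 1, SKO 3 or DKO 4), with 0.33 for Y-linked livers alone. The cause of these changes was not tested. The depth limits Fosb, Fosl1 and Batf.

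With the replicate number as a block, DKO against WT called 0 of the 10 genes, 0 related bZIP genes, 2 immediate early genes, 1 upstream gene and 691 genes in all, and DKO against SKO called 0 genes in all. Livers with the same number had correlations of -0.387 to 0.106 between their deviations from the group means, so the numbers do not pair the livers.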
